A study of Mus musculus with 6 samples.

Results

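The vascular endothelial growth factor (VEGF) family was followed through 10 of the 19057 genes named on the arrays of E15.5 mouse kidneys, with 5 ligands (*Vegfa*, *Vegfb*, *Vegfc*, *Vegfd* and *Pgf*), 3 receptors (*Flt1*, *Kdr* and *Flt4*) and 2 neuropilins (*Nrp1* and *Nrp2*). Probes annotated to 1 of these symbols, or to 1 older symbol such as *Figf* for *Vegfd*, were taken, and a probe listed under 2 symbols of *Nrp2* was left out, which gave 23 of 45277 usable probes, 7 for ligands and 16 for receptors and neuropilins. The arrays were Illumina MouseWG-6 v2.0 beadchips, 3 of Cre-negative littermate control kidneys and 3 of FoxD1GC;Dicer fl/fl kidneys, with 1 array of each genotype from each of 3 litters. Each array held RNA of whole kidneys pooled from 2 embryos. The mutants carried a GFP-Cre fusion knocked in at *Foxd1*, kept on a 129-Elite background, together with floxed *Dicer1* kept on C57BL/6J. The Cre acts in the renal stroma and the cells that descend from it, and *Dicer1* encodes the enzyme that makes mature miRNAs. The study names podocytes as another site where this allele is expressed, and as a possible confounder. The comparison asks how the kidney's RNA differs when stromal cells cannot make mature miRNAs. Controls lacked the Cre allele, and an effect of that allele at *Foxd1* cannot be told apart from one of *Dicer1* loss.

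VEGF ligands are secreted growth factors that bind receptor tyrosine kinases on endothelial cells. *Vegfa* signals mainly through *Kdr* and drives the growth of blood vessels, while *Flt1* binds *Vegfa*, *Vegfb* and *Pgf* and can act as a decoy. *Vegfc* and *Vegfd* are made as precursors, are cut by proteases and act through *Flt4*, the receptor of lymphatic endothelium, and neuropilins are co-receptors that also bind class III semaphorins. In the developing kidney *Vegfa* comes largely from podocytes and tubules and draws endothelial cells into the glomerulus.

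The deposited median bead signal was 106.3 to 123.7 per array, and 37.5% to 44.7% of usable probes were detected at a p-value under 0.05. Signals were background corrected, quantile normalized and put on the log2 scale, and the 18639 probes detected on 3 or more arrays were fitted with litter and genotype in limma. All 18 endothelial markers, all 8 nephron progenitor markers and 6 of 8 ureteric bud markers were among the genes tested. *Dicer1* on the log2 scale was 7.59, 7.98 and 8.0 in the controls of litters 1, 2 and 3 and 7.49, 7.75 and 7.36 in the mutants, and the sources used here do not say whether its probe lies in the floxed part. *Xist*, the RNA that coats the silenced X chromosome of females, was at 9.39 to 9.64 on the control array of litter 1 and the mutant arrays of litters 2 and 3, and at 4.54 to 4.61 on the other 3. The 95th percentile of bead signal was 860.6 and 778.0 on the mutant arrays of litters 2 and 3 and 1060 to 1151 on the other 4.

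Among the VEGF genes, *Vegfd* was lower in the mutant kidneys by more than the spread between arrays, *Vegfb* and *Vegfc* were lower in each litter by smaller amounts, and no tested probe of a ligand, receptor or neuropilin was higher in every litter. Of the 23 probes, 11 were tested, 5 for ligands and 6 for receptors and neuropilins, which covered 7 of the 10 genes. *Pgf*, *Kdr* and *Flt4* had no tested probe. The study's threshold of a *B*-statistic above 0 was met by 0 of the 11, against 0% of all tested probes, and an adjusted p under 0.05 was likewise reached by 0 (0% of all). At an unadjusted p under 0.05 in limma, 1 of the 11 was lower and 0 were higher, against 2.92% (545) and 2.59% (483) of all tested probes. Lower values in all 3 litters were found for 3 of the 11 (13.6% of all tested probes), higher values in all 3 litters for 0 (11.5% of all), and non-overlapping groups with the mutant lower for 1 (7% of all). The 3 were all ligands. The 6 receptor and neuropilin probes, which measure only *Flt1*, *Nrp1* and *Nrp2*, all differed in direction between litters, as did 13952 of the 18639 tested probes. The median log2 difference was -0.01 over the 11 probes and -0.01 over all tested probes. It was -0.25 over the 5 ligand probes and 0.06 over the 6 receptor and neuropilin probes.

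**Figure D1:**
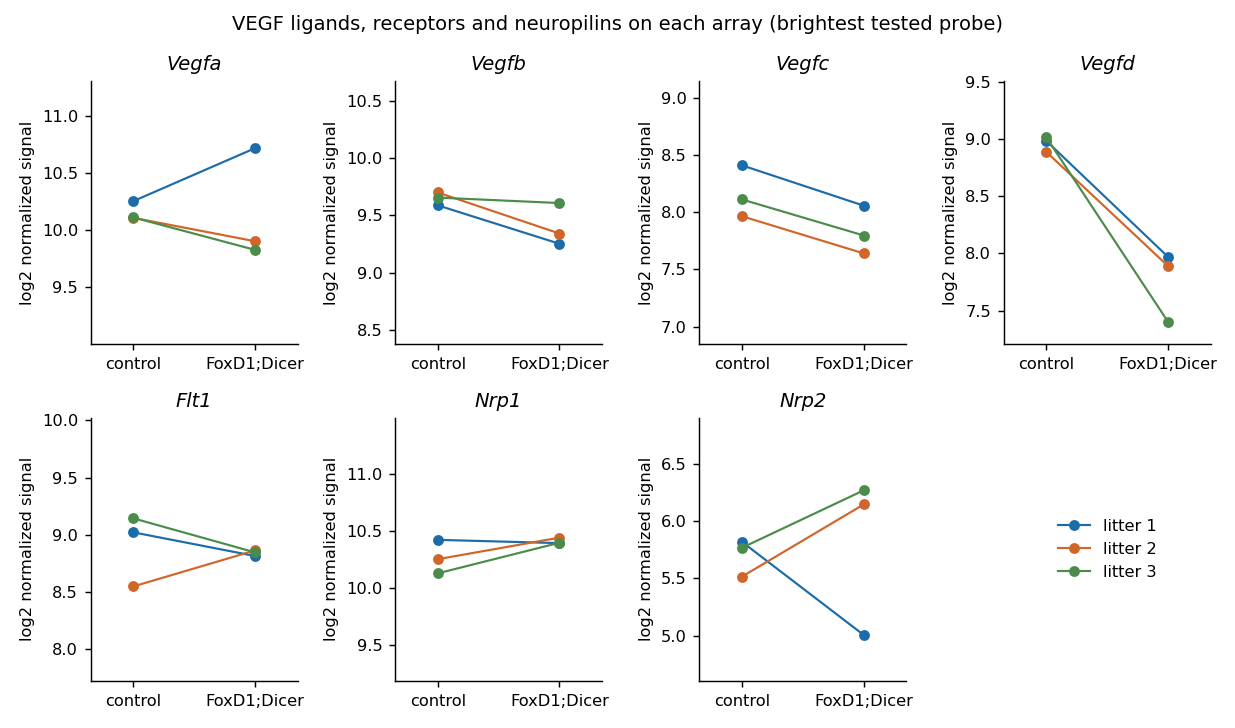
Normalized log2 signal (vertical axis, each panel spanning the same width of log2 units) of the brightest tested probe of 7 genes, in control and FoxD1;Dicer kidneys, with 1 line for each litter. *Vegfd* lies at 8.89 to 9.01 in controls and at 7.40 to 7.97 in mutants, *Vegfc* has nearly parallel lines, and *Vegfa* and *Nrp2* run in opposite directions in litter 1.

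*Vegfd* encodes a ligand that in the mouse acts through *Flt4*, and it was first found as a gene induced by c-Fos. Its only probe (ILMN_2697220) had bead signals of 633.1, 603.0 and 696.9 in the controls of litters 1, 2 and 3 and of 374.8, 291.0 and 225.1 in the mutants. On the log2 scale the controls were at 8.98, 8.89 and 9.01 and the mutants at 7.97, 7.89 and 7.40. Every mutant array was below every control array, and the lowest was the mutant of litter 3. The means were 8.96 ± 0.07 (SD, n = 3 arrays) and 7.75 ± 0.31 (SD, n = 3), a 2.31-fold lower level in the mutant and a log2 fold change of -1.21 ± 0.22 (SE, limma, adjusted p = 0.71). The litter differences were -1.01, -0.998 and -1.61, and *Vegfd* ranked 24 of 18639 probes by p. The *B*-statistic was -2.08 with litter as a block. It was 0.65 with no litter block, 0.18 with an intensity trend, 1.39 with array weights and, in a fit added after seeing the data, 5.24 with arrays scaled to the median of all probes, so that *Vegfd* met the study's threshold in those 4 fits. *Vegfd* is also on a list that the study drew from these same arrays, so its direction is not independent evidence. *Vegfd* lies on the X chromosome, and *Xist* was high in the control of litter 1 but in the mutants of litters 2 and 3, while *Vegfd* was lower in the mutant of each. With *Xist* as a covariate beside litter and genotype, the log2 fold change of *Vegfd* was -1.16. That fit rests on few arrays, with *Xist* high in more mutants than controls. The part of sex in the *Vegfd* difference was not tested. In bulk kidney RNA, fewer cells of a type and less RNA per cell cannot be told apart.

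**Figure D2:**
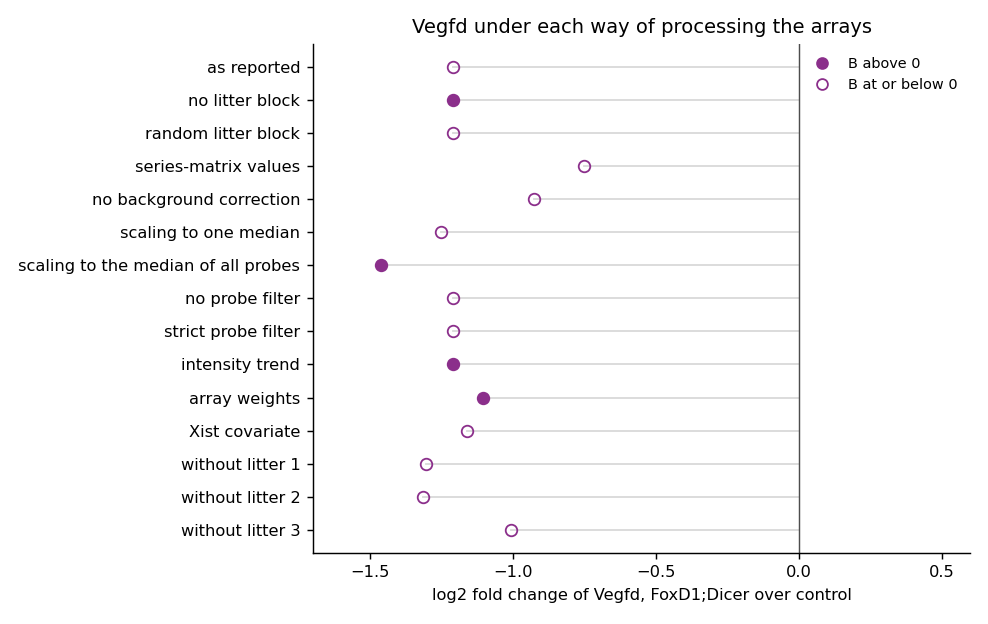
Log2 fold change of *Vegfd* (horizontal axis, FoxD1;Dicer over control) under the main fit here (labelled as reported) and 14 others. Points are filled where the *B*-statistic is above 0. All 15 points lie between -1.46 and -0.75, and 4 are filled. Settings that change only the block, the probe filter or the prior variance leave the log2 fold change as it was.

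The promoters of the ligands that were lower in each litter are shown because that of *Vegfd* differs in composition from those of *Vegfb* and *Vegfc*. Each window runs from 250 bases before to 50 bases after a RefSeq transcription start in GRCm38.p6, and such windows were found for 10 of the 10 genes. The *Vegfd* gene spans chrX:164373522-164402650 on the plus strand, with its window at chrX:164373272-164373571. The window of *Vegfb* is at chr19:6987602-6987901 on the minus strand and that of *Vegfc* at chr8:54077282-54077581 on the plus strand. Capitals mark the TATA box TATAAA, the hypoxia response cores ACGTG and GCGTG and the AP-1 site TGANTCA, searched on both strands.
Vegfd: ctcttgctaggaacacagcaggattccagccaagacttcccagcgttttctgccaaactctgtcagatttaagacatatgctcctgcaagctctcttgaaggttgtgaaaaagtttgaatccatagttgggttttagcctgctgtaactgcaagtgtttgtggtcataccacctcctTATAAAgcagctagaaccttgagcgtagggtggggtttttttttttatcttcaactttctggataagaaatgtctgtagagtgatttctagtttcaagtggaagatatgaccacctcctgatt
Vegfb: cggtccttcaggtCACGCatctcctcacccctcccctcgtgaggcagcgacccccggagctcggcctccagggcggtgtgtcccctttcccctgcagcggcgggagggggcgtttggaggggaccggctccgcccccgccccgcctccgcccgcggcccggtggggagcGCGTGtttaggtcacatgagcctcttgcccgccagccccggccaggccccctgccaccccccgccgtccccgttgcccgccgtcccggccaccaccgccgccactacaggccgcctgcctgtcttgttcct
Vegfc: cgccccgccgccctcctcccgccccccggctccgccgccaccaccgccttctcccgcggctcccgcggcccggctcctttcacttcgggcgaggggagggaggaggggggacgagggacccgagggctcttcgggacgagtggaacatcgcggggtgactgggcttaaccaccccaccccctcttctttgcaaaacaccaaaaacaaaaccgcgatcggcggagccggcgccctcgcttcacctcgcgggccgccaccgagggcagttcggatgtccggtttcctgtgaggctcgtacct
The *Vegfd* window had 42% G and C and 2 CpG dinucleotides, below the medians of 52.7% and 7 over 32851 such windows. *Vegfb* had 75.3% and 31, and *Vegfc* 70.3% and 35. TATAAA was in the *Vegfd* window, starting 73 bases before the transcription start, and in 13.6% of all windows. GCGTG was in the *Vegfb* window on both strands (32.4% of all windows), and *Vegfc* held none of the motifs in capitals. TGANTCA (7.81% of all windows) was in none of the 3 windows shown, and ACGTG (19.6%) was in none of them either. The GC box GGGCGG, not in capitals and present in 35.7% of all windows, occurred 4 times in *Vegfb*, 2 times in *Vegfc* and 0 times in *Vegfd*. Motifs in capitals did not overlap one another, and a match describes the letters only.

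*Vegfc*, the main growth factor of lymphatic vessels, had bead signals of 457.4, 361.6 and 411.5 in the controls of litters 1, 2 and 3 and of 391.9, 257.5 and 265.4 in the mutants. Its normalized log2 values were 8.41, 7.96 and 8.11 in controls and 8.06, 7.64 and 7.80 in mutants. The groups overlapped because litters sat at different levels, with the mutant of litter 1 above the control of litter 2. Within litters the differences were -0.35, -0.32 and -0.31, closer together than those of any other member probe tested. The log2 fold change was -0.33 ± 0.19 (SE, limma, adjusted p = 0.86), with a 95% interval from -0.79 to 0.12. This interval includes 0.

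*Vegfb*, a ligand of *Flt1*, had bead signals of 916.7, 990.4 and 1031 in controls and of 763.5, 636.6 and 687.8 in mutants, and those bead signals did not overlap. After normalization the log2 values were 9.59, 9.70 and 9.66 in controls and 9.25, 9.34 and 9.61 in mutants, and the groups overlapped by the mutant of litter 3. The array of that mutant also had the lowest 95th percentile of bead signal, 778.0. The litter differences were -0.34, -0.36 and -0.05, with a log2 fold change of -0.25 ± 0.20 (SE, limma, adjusted p = 0.88). *Vegfb* and *Vegfc* stayed below 0 under every alternative processing run, from -0.55 to -0.19 and from -0.59 to -0.19. Only alternatives with other values or with *Xist* as a covariate could have turned these signs.

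**Figure D3:**
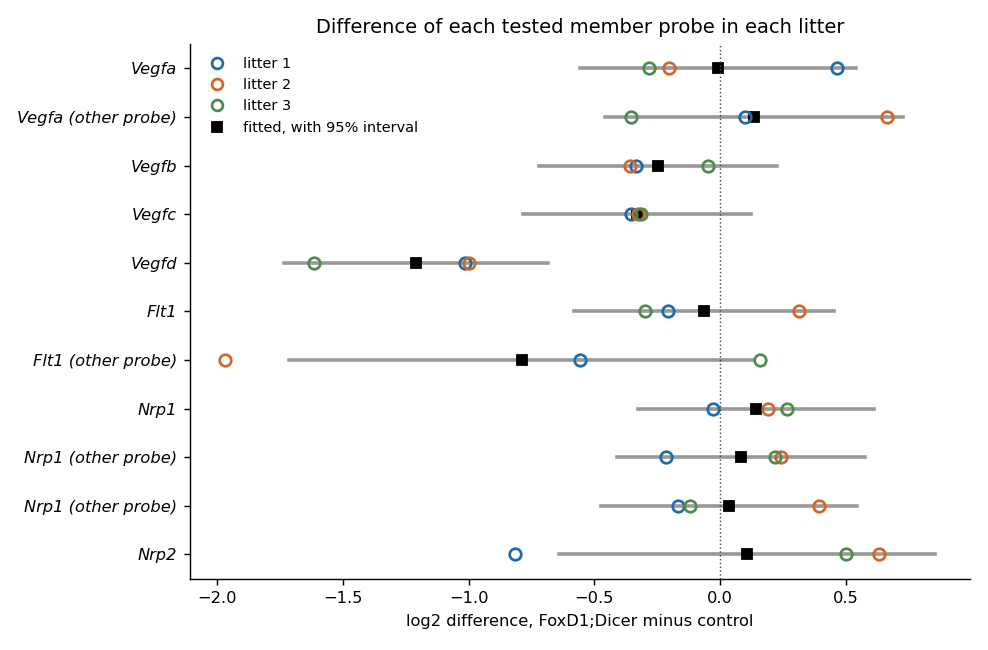
Log2 difference between the FoxD1;Dicer and the control array of each litter (open circles, horizontal axis) for the 11 tested probes of VEGF genes, with the fitted log2 fold change (squares) and its 95% interval (grey bars). The interval of *Vegfd*, from -1.73 to -0.68, lies below 0, and the other 10 intervals include 0.

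*Vegfa*, the principal ligand of blood vessel growth, differed in direction between litters. Its brightest probe (ILMN_2484527) had bead signals of 1390, 1294 and 1396 in the controls of litters 1, 2 and 3 and of 1838, 905.1 and 779.0 in the mutants. On the log2 scale the controls were at 10.25, 10.11 and 10.11 and the mutants at 10.72, 9.90 and 9.83. The means were 10.16 ± 0.08 (SD, n = 3) in controls and 10.15 ± 0.49 (SD, n = 3) in mutants, with the mutant of litter 1 above and those of litters 2 and 3 below all controls. The litter differences were 0.46, -0.20 and -0.28, and the log2 fold change was -0.01 ± 0.23 (SE, limma, adjusted p = 0.995, 95% interval from -0.56 to 0.54). A dimmer probe for another transcript of the gene (ILMN_3121255) had log2 values of 6.79, 6.50 and 7.50 in controls and 6.89, 7.17 and 7.14 in mutants. Its litter differences of 0.10, 0.66 and -0.36 followed another order, with a log2 fold change of 0.14 ± 0.25 (SE, limma, adjusted p = 0.95). The third *Vegfa* probe was not detected on any array. *Pgf*, placental growth factor, was detected on 0 control and 2 mutant arrays, with bead signals of 118.6, 123.1 and 111.4 in controls and 115.3, 124.1 and 112.0 in mutants. The lowest and highest of these were 0.836 and 1.03 times the lowest signal of a detected probe on the same array, so no fold is given.

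Of the receptors, *Flt1* was well above background and *Kdr* was not. The brightest *Flt1* probe (ILMN_1227926) had log2 values of 9.02, 8.55 and 9.14 in the controls of litters 1, 2 and 3 and 8.81, 8.86 and 8.85 in the mutants. The mutants lay within the range of the controls, with litter differences of -0.21, 0.31 and -0.30. The log2 fold change was -0.06 ± 0.22 (SE, limma, adjusted p = 0.97). The second *Flt1* probe (ILMN_2732721), near background with detection on 2 control arrays and 1 mutant array, had bead signals of 122.8, 185.9 and 119.3 in controls and 105.0, 103.3 and 110.7 in mutants. Its log2 fold change of -0.79 ± 0.39 (SE, limma, adjusted p = 0.86) rested on the control of litter 2, with litter differences of -0.56, -1.97 and 0.16, and was -0.20 without that litter.

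*Kdr*, the main signaling receptor for *Vegfa*, had 2 probes, and neither was detected on any of the 6 arrays. Their signals were 0.700 to 0.997 times the lowest detected signal of the array, although the 18 endothelial markers were tested. These probes therefore give no level of *Kdr*. *Flt4*, the receptor for *Vegfc* and *Vegfd*, had 3 probes. One (ILMN_2611439) had bead signals of 118.1, 146.5 and 143.9 in controls, where it was detected on 2 arrays, and of 106.8, 106.8 and 105.5 in mutants, where it was detected on 0. The control signals were all above the mutant ones, although the control of litter 1 was itself not detected. The measured log2 means of this probe were 5.31 in controls and 4.58 in mutants. No fold is given, because that control and all mutants were not detected. A second *Flt4* probe (ILMN_1219072) was detected on the control of litter 3 alone, and its litter differences of 0.48, -0.57 and -1.69 did not share a sign. The third was not detected on any array.

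**Figure D4:**
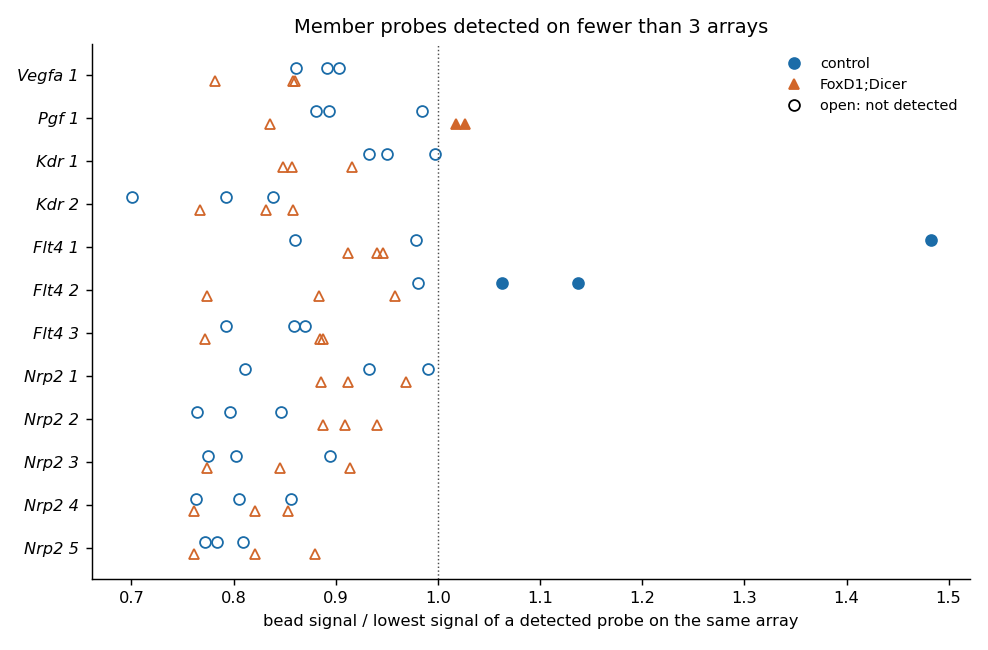
Bead signal of the 12 member probes that were detected on fewer than 3 arrays, divided by the lowest signal of a detected probe on the same array (horizontal axis, dotted line at 1). Points are control (circles) and FoxD1;Dicer arrays (triangles), filled where detected. *Flt4* has filled points in controls, *Pgf* in mutants, and *Kdr* and 5 *Nrp2* probes in none.

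The neuropilins bind VEGFs beside the receptor kinases. *Nrp1* was bright on all arrays, and its brightest probe (ILMN_2669912) had log2 values of 10.42, 10.25 and 10.13 in the controls of litters 1, 2 and 3 and 10.39, 10.44 and 10.40 in the mutants. The groups overlapped, with litter differences of -0.03, 0.19 and 0.27. The log2 fold change was 0.14 ± 0.20 (SE, limma, adjusted p = 0.93), and the 95% interval from -0.33 to 0.61 bounds it. The other *Nrp1* probes had log2 fold changes of 0.08 and 0.04, and all 3 were below 0, from -0.23 to -0.17, when arrays were scaled to the median of all probes. *Nrp2*, a co-receptor for *Vegfc* and *Vegfd*, had 1 tested probe of 6 (ILMN_2480957), and the other 5 were not detected on any array. Its log2 values were 5.82, 5.52 and 5.77 in controls and 5.0, 6.15 and 6.27 in mutants. The mutant of litter 1 was below all controls and those of litters 2 and 3 above, the reverse of *Vegfa*. The litter differences of -0.81, 0.63 and 0.50 gave a log2 fold change of 0.11 ± 0.31 (SE, limma, adjusted p = 0.97), and this was -0.11 with *Xist* as a covariate.

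The differences of *Flt1* and the neuropilins were set beside the 18 endothelial markers. Bulk RNA does not show how much of each comes from endothelium, so the relative values are not levels per endothelial cell. The markers had a median log2 difference of 0.32 in litter 1, -0.35 in litter 2 and -0.28 in litter 3, and of -0.15 in the fit, with 14 lower, 4 higher and 0 past an unadjusted p of 0.05 in limma. Beside this and the lists below, 5902 of all 10474 tested genes were lower and 4572 higher, with a median of -0.04. At an unadjusted p under 0.05 in limma, 338 of all tested genes were lower and 223 higher. Summed as a mean log2 level, the endothelial markers stood at 8.38 to 8.53 in controls and 8.16 to 8.68 in mutants. Relative to the marker median, the brightest *Flt1* probe was at -0.53, 0.66 and -0.02 in litters 1, 2 and 3, and *Nrp1* at -0.35, 0.54 and 0.54. *Nrp2* was at -1.14, 0.98 and 0.78. None of these 3 probes held one sign against the markers. Of 6 markers of lymphatic endothelium, where *Flt4* is used, 4 were tested, with a median log2 difference of -0.10 and 0 past an unadjusted p of 0.05 in limma. These were *Foxc2*, *Lyve1*, *Pdpn* and *Mmrn1*, the last detected on 3 of 6 arrays, while *Prox1* and *Ccbe1* had no tested probe. Bulk RNA does not show which cells these RNAs came from, so the median gives no level of lymphatic endothelium.

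The litter order of *Vegfa*, higher in the mutant of litter 1 and lower in those of litters 2 and 3, was also that of several marker lists. Podocyte markers, of which 4 of 10 were tested, had medians of 0.54, -0.17 and -0.12 in litters 1, 2 and 3, and the endothelial markers were given above. Hypoxia-induced genes had medians of 0.20, -0.16 and -0.15 over 16 tested genes, and tubule markers 0.02, -0.59 and -0.76 over 8. Over all 10474 tested genes the medians were -0.01, -0.02 and -0.11. *Xist* ran the reverse way, at -5.10, 4.82 and 5.03 in litters 1, 2 and 3, so that *Vegfa* was lower, and *Nrp2* higher, on the array of each litter where *Xist* was high. With *Xist* as a covariate *Vegfa* was at 0.10, and the part of these values in the *Vegfa* pattern was not tested. *Vegfd*, lower in all 3 litters, did not share that order.

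**Figure D5:**
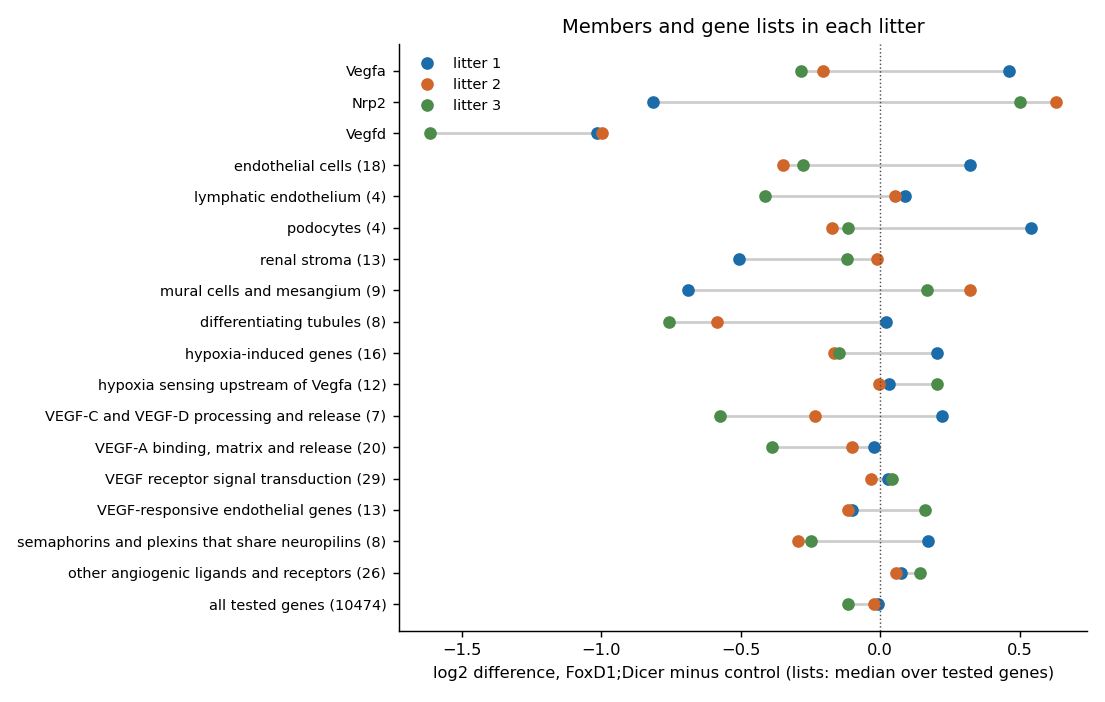
Log2 difference between FoxD1;Dicer and control arrays in each litter (horizontal axis) for *Vegfa*, *Nrp2* and *Vegfd* and, as medians, for 14 gene lists and all tested genes, with the number of tested genes in parentheses. *Vegfa* and, among other lists, endothelial, podocyte and hypoxia-induced genes have litter 1 above 0 and litters 2 and 3 below it, *Nrp2* has the reverse, and *Vegfd* lies below all 14 lists in each litter.

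The list upstream of *Vegfa* holds genes of hypoxia-inducible factors, of their partners and coactivators, and of proteins that restrain them. Its 12 tested genes had a median log2 difference of -0.02, 7 lower and 5 higher. *Hif1an*, which hydroxylates and restrains these factors, was at 0.72 (litter differences 0.01, 0.90 and 1.25, adjusted p = 0.86 from limma). With the series-matrix values *Hif1an* was at 0.34. The 16 hypoxia-induced genes, which share this control with *Vegfa*, had a median of -0.10, 9 lower and 7 higher. *Pfkfb3*, a regulator of glycolysis, was at 0.56, above control in each litter, but its probe was near background with detection on 3 of 6 arrays, and it was at 0.089 with the series-matrix values. Neither list had a gene past the study's threshold, which none of the 18639 tested probes passed in the fit used here.

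No gene that releases, binds or holds the ligands passed the study's threshold, but neither did any of the 18639 tested probes in the fit used here. The 7 tested genes of *Vegfc* and *Vegfd* processing had a median log2 difference of -0.24, 5 lower and 2 higher, at 0.22, -0.24 and -0.57 in litters 1, 2 and 3. The 20 tested genes of *Vegfa* binding and release from matrix had a median of -0.11, 12 lower and 8 higher. *Sulf1*, which trims sulfate from heparan chains and so alters ligand binding, was lower in each litter by a log2 difference of -0.93, -0.51 and -0.76 (-0.73 ± 0.20 in the fit, SE, limma, adjusted p = 0.86). With the series-matrix values *Sulf1* was at -0.38. Downstream of the receptors, 29 tested genes of signal transduction had a median of 0.02, 14 lower and 15 higher. *Hspb1*, a heat shock protein phosphorylated after *Kdr* activation, was at -0.60, and at -0.24 with the series-matrix values. The 13 tested genes known to respond to VEGF in endothelium had a median of -0.10, 8 lower and 5 higher, with 0 past an unadjusted p of 0.05.

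Among ligands that share the neuropilins, *Sema3a*, a repulsive guidance cue that binds *Nrp1*, had a log2 fold change of -1.23 ± 0.21 (SE, limma, adjusted p = 0.71), with litter differences of -1.38, -0.89 and -1.43. With the series-matrix values *Sema3a* was at -0.55. The list of semaphorins and plexins had a median of -0.07 over 8 tested genes, 6 lower and 2 higher. Other angiogenic ligands and receptors had a median of 0.04 over 26 tested genes, 12 lower and 14 higher. *Met*, the receptor of hepatocyte growth factor, was at 0.83 and *Tgfb1* at 0.48, each above control in every litter. *Met* was detected on 4 of 6 arrays and was at 0.13 with the series-matrix values. The lowest value of *Tgfb1* under the alternative ways of processing was 0.10.

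Markers of the stroma, where the Cre acts, had a median log2 difference of -0.13 over 13 tested genes, 10 lower and 3 higher, with mean log2 levels of 9.71 to 9.84 in controls and 9.24 to 9.60 in mutants. They included *Penk* at -2.09, *Lum* at -0.78 and *Col3a1* at -0.51. Mural and mesangial markers had a median of 0.14 over 9 tested genes, 4 lower and 5 higher. *Acta2*, the smooth muscle actin, was at -1.27 and *Abcc9*, a pericyte channel subunit, at -0.98, while the pericyte genes *Rgs5* and *Pdgfrb*, named after their values were seen, were at 0.48 and 0.33 and higher in each litter. *Penk*, *Lum*, *Col3a1*, *Acta2* and *Abcc9*, lower in each litter as *Vegfd* was, were measured in the same bulk RNA, and their part in the *Vegfd* difference was not tested. Single markers of other cells past an unadjusted p of 0.05 in limma with one sign in each litter were *Cubn* at -0.67 and *Slc4a1* at -0.60, and *Cx3cr1* at 0.87, *Eya1* at 0.60, *Plce1* at 0.74 and *Mc2r* at 0.99. Their lists were mixed, with 6 lower and 2 higher for tubules, 3 lower and 2 higher for erythroid cells, 3 lower and 5 higher for nephron progenitors and 2 lower and 2 higher for podocytes, and *Mc2r* was the only tested marker of 7 for adrenal cortex. *Plce1* and *Mc2r* were each detected on 4 of 6 arrays and were at 0.12 and 0.17 with the series-matrix values. On those values *Cubn* was at -0.12, *Slc4a1* at -0.28, *Cx3cr1* at 0.18 and *Eya1* at 0.32. Of the stromal and mural genes, *Abcc9* was then at -0.23, *Lum* at -0.56, *Penk* at -0.96, *Col3a1* at -0.58 and *Acta2* at -1.30. Macrophages can make VEGF ligands, and their markers had a median of 0.21 over 8 tested genes, 1 lower and 7 higher. The medians in litters 1, 2 and 3 were 0.55, 0.10 and -0.05, and 1 marker was higher and 1 lower in every litter.

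The genes whose pattern over the 6 arrays was most like that of *Vegfd*, among 4174 genes with an SD of at least 0.3, were *Slc50a1*, a sugar transporter (Pearson's r = 0.998, Spearman's rho = 0.943), *Eln*, elastin (r = 0.996, rho = 0.943), and *Reln*, the secreted protein reelin (r = 0.996, rho = 1). Their log2 fold changes were -0.72, -1.06 and -1.23, or -0.44, -0.37 and -0.55 with the series-matrix values. Of the 4174 genes, 44 had an r over 0.95 with *Vegfd*. Most like *Vegfa* were *Amy2a5*, a pancreatic amylase (r = 0.98), *C1s2*, of the complement system (r = 0.98), and *Afp*, the fetal serum protein alpha-fetoprotein (r = 0.98). Between members, r over the 6 arrays was -0.93 for *Vegfa* with *Nrp2* and 0.71 for *Vegfc* with *Vegfd*. These correlations are descriptions over 6 arrays that share litters and genotype.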

How the data were processed

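Whole-kidney RNA of 3 litters was measured on 6 Illumina MouseWG-6 v2.0 arrays. The intensity the authors deposited per probe is the mean signal of its beads, neither background subtracted nor normalized. The deposited detection p-value compares that signal with negative control beads. The authors also deposited series-matrix values on a log2 scale, with medians of 7.23 to 7.24 per array. Their direction follows the bead signals and genes were not centred, but the sources used here leave out their exact transformation. The study's methods name lumi and limma, litter in the linear model and a *B*-statistic above 0.

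From 45281 entries, 2 lacking an identifier and 2 repeating one were dropped. Probes were named through the platform annotation with symbols updated by gene identifier, and 34881 had 1 gene, 18 had several and 10378 were unnamed here. A probe annotated to *Nrp2* under both of its names counted among those with several and was not used. Background was corrected by normexp on detection p-values (offset 16), then quantile normalization and log2 followed (neqc). Probes detected at 0.05 on 3 or more arrays were tested with lmFit and eBayes, with a prior share of 0.01 for *B* and Benjamini-Hochberg adjustment over all 18639. Lists took 1 probe per gene, the brightest. Genes outside the family were named where an unadjusted p was under 0.05 with one sign in all litters, up to 3 per list and direction, or as the 3 genes most like *Vegfd* and *Vegfa*. The same search was planned for *Kdr*, which had no tested probe. The members, the lists and this rule were chosen with earlier results of these data known. Litter numbers mark shared litters in the labels, so litter was a block. Deviations of same-litter arrays from their genotype means correlated at -0.29, -0.02 and -0.12. Precision is limited by the number of arrays, with a median SE of 0.22 per log2 fold change. Alternatives changed the block, background correction, normalization, probe filter, prior variance, array weights, covariates and litters, and scaling to the median of all probes was added after seeing the data. Promoter windows and gene positions came from RefSeq (GRCm38.p6). Fits used limma 3.58.1 in R 4.3.3 with the data.table package (version 1.17.8), and figures used matplotlib 3.10.9 in Python 3.11.15.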

Additional observations from a re-analysis of the deposited data

How the results depend on the processing

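*Vegfd* was lower under all 14 alternatives, at log2 fold changes of -1.46 to -0.75 and adjusted p of 0.00105 to 1.00 in limma. It met the *B* threshold in 4, with no litter block, with an intensity trend, with array weights and with scaling to the median of all probes. That scaling, chosen after seeing the data, moved the median of all tested probes to -0.22, and relative to it *Vegfd* was at -1.24, *Vegfb* at -0.33 and *Vegfc* at -0.37. *Vegfb* and *Vegfc* kept their sign in all 14. All these ligands were lower in every litter, so changes of block, filter, prior variance or array weights, or leaving out a litter, could not turn the sign. It could turn only with other values (series matrix, background correction or scaling) or with *Xist* as a covariate.

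Probes with *B* above 0 numbered 0 in the main fit here, with litter as a block, which is not the study's own count. They numbered 34 without the replicate block in an unpaired fit, 10 with litter as a random block and 5 without background correction. Scaling gave 20 with one median of tested probes and 117 with the median of all probes. An intensity trend gave 18, array weights 249 and *Xist* as a covariate 10. With a litter left out there were 0 to 35 (33 without litter 1, 35 without litter 2). Member probes at an unadjusted p under 0.05 numbered 1 in the main fit, 2 with the series-matrix values and 3 with scaling to the median of all probes. They numbered 3 of 23 without the probe filter, 4 with array weights and 1 to 2 with a litter left out. Member probes with one sign in every litter numbered 3 in the main fit and 8 of 23 without the filter. They numbered 5 to 7 with a litter left out, where only 2 litters had to agree.

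Direction turned for probes with differences near 0, and the cause was not tested. The brightest *Vegfa* probe was at 0.00039 with series-matrix values, 0.10 with *Xist* as a covariate, 0.14 for the other probe and -0.24 to 0.13 with a litter left out. The dimmer one was at -0.073 with scaling to the median of all probes and -0.13 to 0.38 with a litter left out. The brightest *Flt1* probe was at 0.17 with array weights and -0.25 to 0.054 with a litter left out. With scaling to the median of all probes the *Nrp1* probes were at -0.18, -0.23 and -0.17. One of them was at -0.023 with scaling to one median, and another at -0.011 with *Xist* and -0.14 to 0.14 with a litter left out. *Nrp2* was at -0.11 with *Xist* and -0.16 to 0.57 with a litter left out.

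With 3 arrays per genotype, a difference near the median standard error could not be told from 0. Larger ones also stayed uncalled in the main fit, among them *Vegfd* at -1.21 (adjusted p = 0.71 in limma). The *Kdr* probes and most *Nrp2* probes were not detected on any array, and each *Flt4* and *Pgf* probe was detected on at most 2.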
